A study of Homo sapiens with 6 samples.

Results

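The 34 genes described here carry glucose through glycolysis and the pentose phosphate branch, from uptake at the cell surface to lactate export, to the regulation of pyruvate dehydrogenase and to the interconversion of sugar phosphates. They were chosen by symbol from the deposited gene table, and all 34 were found among its 60606 genes, each once. Tumors were grown from wild-type MDA-MB-231, a human triple-negative breast cancer cell line, injected under the skin of the left flank of NSG mice together with Matrigel, a basement membrane extract. NSG mice lack T, B and natural killer cells but keep other host cells such as myeloid cells and fibroblasts. The control group was 3 tumors that were not irradiated. The irradiated group was 3 tumors given 10 Gy of X-rays once, locally, when they had reached roughly 800 mm3, and taken 3 days later. Size and collection time of the controls are not recorded, and the labels do not say whether each tumor came from its own mouse, so the p-values below measure the spread between these 6 samples, which may be technical.

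Glycolysis splits glucose into pyruvate and yields ATP without oxygen. Many tumor cells, MDA-MB-231 among them, run it at a high rate and export the product as lactate, and several of its enzymes are induced by hypoxia-inducible factor 1 (HIF-1) and by MYC. The pentose phosphate branch leaves glycolysis at glucose 6-phosphate, makes NADPH in its oxidative steps and ribose 5-phosphate for nucleotides in its non-oxidative steps, and its last enzymes return carbon to glycolysis.

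Levels are TPM, each gene's share of all transcripts corrected for its length, so they can be compared between genes. A difference is the mean of log2(TPM + 1) in the irradiated tumors minus that in the controls, a scale that understates the change of low genes. Adjusted p-values are those of limma over the 14140 genes whose mean reached 1 TPM. All 34 genes passed that filter. Genes at 1 TPM or more overlap HK2, PFKM, PFKFB2, TPI1, SLC16A3, PDK1, PGLS and RPE on the opposite strand and PFKFB4, ALDOA and PGK1 on the same strand, so the values of these 11 are less certain. TPM keep no read depth, so the number of reads behind a value is unknown. From 13392 to 14218 genes reached 1 TPM in a tumor. The share of ribosomal protein genes was 27.0% of all TPM in control tumor 2 and 19.9% to 22.3% in the other 5. Among markers of the cell line, VIM was at 3148 TPM or more and CD44 at 158 TPM or more in every tumor. Of the 5 markers, VIM (-0.46), CD44 (-0.44) and AXL (-0.53) were lower after irradiation without overlap, EGFR and KRT18 overlapped, and 0 passed with limma. The hormone receptors ESR1 and PGR were at 0.32 TPM or less and ERBB2 at 25.4 to 40.7 TPM.

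Most of the 34 genes had lower values in irradiated tumors, and the sizes of the differences ranged from -1.03 to 0.43. Summed over the 34 genes, they took 2.34% to 2.43% of all TPM in the controls and 1.74% to 1.91% in the irradiated tumors. Of the 34 genes, 5 fell (SLC2A1, HK2, TPI1, ENO2 and LDHA) and 0 rose with limma at an adjusted p of 0.05, where 1.61% of all tested genes fell and 1.37% rose. At an unadjusted p under 0.05, 14 were lower and 0 higher, against 11.5% and 8.93% of all genes. The median difference of the 34 was -0.31, against -0.06 for all genes, and 32 of the 34 differences were below 0, against 55.7% of all genes. In 16 of the 34 all 3 irradiated values lay below all 3 control values, against 15.0% of all genes, and in 1 they lay above, against 11.6%. Among the 22 members with a mean of at least 100 TPM, 4 fell and 11 had no overlap with irradiated lower, where 3.19% and 21.1% of all genes that abundant did so. In the other direction 0 of the 22 rose and 0 had no overlap, against 2.35% and 14.9%. The count of members that fell depended on single tumors. It was 4 without control tumor 2, 1 (SLC2A1) without irradiated tumor 2, and 0 without any one of the other 4 tumors, where the test also has fewer samples. The 34 symbols were proposed with earlier results of these tumors known, so these counts describe the genes and are no independent evidence.

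**Figure D1:**
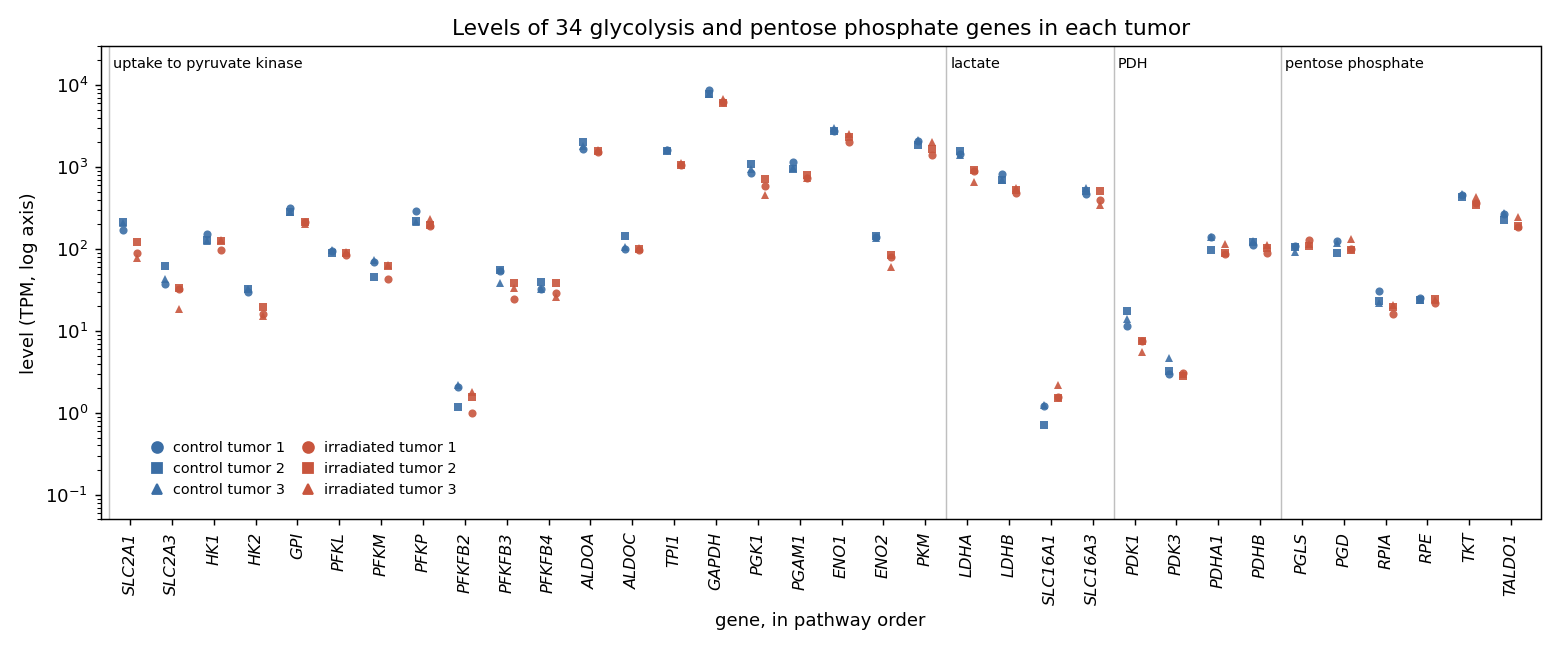
Level of each of the 34 genes (TPM, log axis) in the 3 control tumors (blue) and the 3 irradiated tumors (red), in pathway order, 1 point per tumor. GAPDH was the most abundant, at 6107 to 8684 TPM, and SLC16A1 the least, at 0.71 to 2.16 TPM, and the red points lie below the blue ones in 16 genes.

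**Figure D2:**
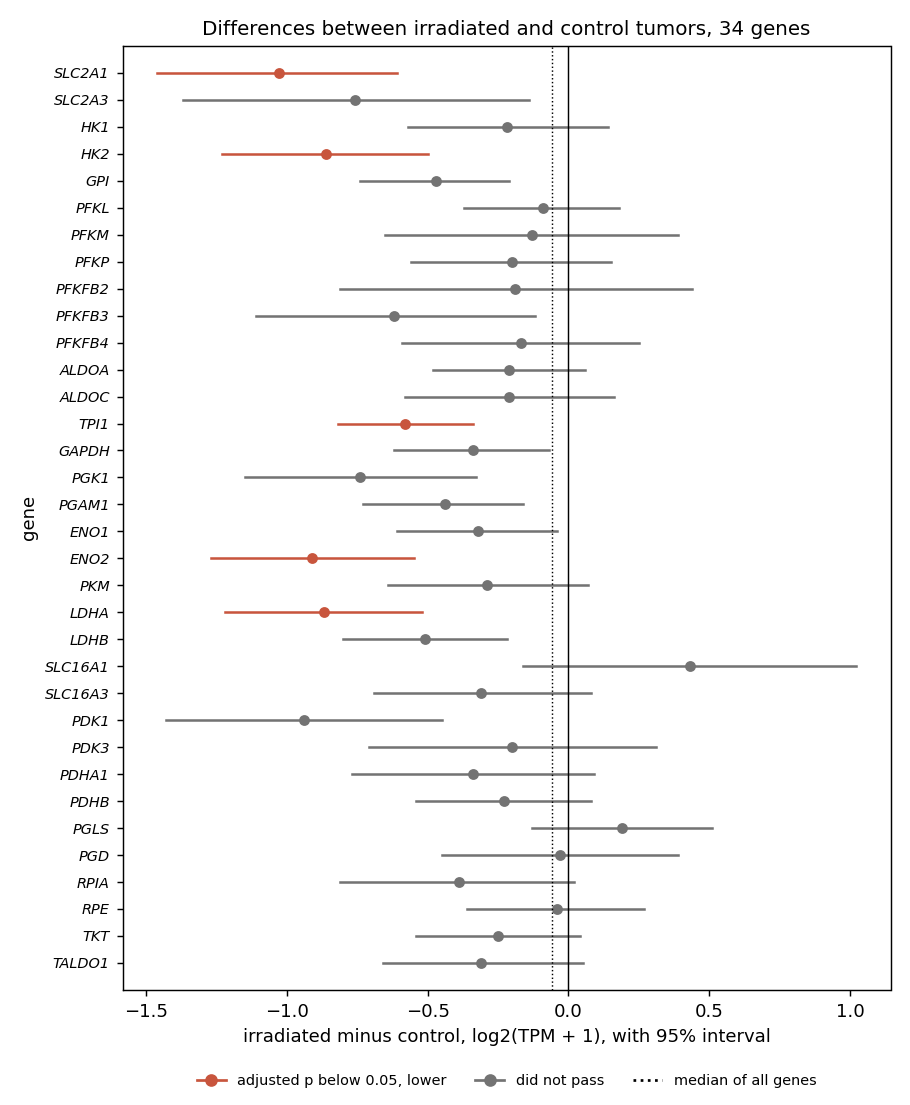
Difference between irradiated and control tumors for each gene on the log2(TPM + 1) scale, with its 95% interval from limma (3 tumors per group). The 5 genes in red passed an adjusted p of 0.05, the dotted line is the median of all 14140 genes (-0.06), and 32 of the 34 points lie below 0.

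Skeletal muscle is rich in glycolytic enzymes, and its markers moved with the groups. The 16 muscle markers summed to 205, 273 and 552 TPM in control tumors 1, 2 and 3, and in irradiated tumors 1, 2 and 3 to 3.01, 146 and 3.31 TPM. Of the 13 that were tested, 3 fell (MYH1, MYH4 and CASQ1), against 1.61% of all genes. All 13 had differences below 0 (median -2.99), against 55.7% of all genes. Of the 16 markers, 14 were lower without overlap, against 15.0% of all tested genes. Among the 34 genes, HK2, ALDOA and LDHA were lower without overlap, and PFKM, the muscle-type phosphofructokinase, overlapped between the groups. The muscle-type mutase PGAM2 was at 0.62 TPM or less in every tumor. Muscle enolase (ENO3) was at 16.9, 12.1 and 19.7 TPM without irradiation and 11.4, 14.7 and 13.7 TPM with it, which overlapped. PGAM2 and ENO3 are outside the list of 16 muscle markers and were named after their values were seen. Fibroblast markers summed to 477 to 1005 TPM in the controls and 133 to 215 TPM after irradiation. Of 6 tested, 3 fell (COL1A1, COL1A2 and COL3A1), against 1.61% of all genes. These 3 collagens make up most of that sum. The other 3 (FAP, DCN and PDGFRB) did not pass. FAP was lower without overlap, with a difference of -1.0, and DCN differed by -0.08. PDGFRB differed by 0.95, with 3.45, 2.12 and 4.95 TPM without irradiation and 4.21, 7.28 and 12.8 TPM with it. Endothelial markers summed to 8.95 TPM or less and adipocyte markers to 1.00 TPM or less in every tumor. The 5 macrophage and leukocyte markers summed to 79.9 to 101 TPM in the controls and 96.8 to 192 TPM after irradiation. Nearly all of this was CD68, at 94.2, 74.9 and 84.8 TPM without irradiation and 187, 126 and 91.2 TPM with it (0.61, adjusted p = 0.210), while PTPRC was at 0.30 TPM or less and CD14 at 0.73 TPM or less. In bulk tumors a smaller share of cells of one type and less RNA per cell cannot be told apart, and the part of muscle, fibroblast and macrophage RNA in the differences of the 34 genes was not tested.

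The transcripts of the glucose transporters showed one of the larger reductions. SLC2A1 (chr1:42925375-42959176, minus strand, GRCh38, GENCODE 29), the GLUT1 transporter that brings glucose into most tumor cells, was at 169.6, 214 and 205 TPM in control tumors 1, 2 and 3 and at 89.8, 122 and 78.0 TPM in irradiated tumors 1, 2 and 3. The groups did not overlap, and SLC2A1 fell by 1.03 (SE 0.186, 95% interval -1.46 to -0.61, limma adjusted p = 0.0286), with a mean TPM 50.8% lower. SLC2A3, the high-affinity transporter GLUT3, was less abundant, at 37.8, 61.9 and 43.1 TPM across the controls and at 32.1, 33.8 and 18.4 TPM after irradiation. Its groups did not overlap either, but the difference of -0.76 did not pass (adjusted p = 0.165). SLC2A14, a near-identical copy of SLC2A3, was at 6.89 ± 1.29 TPM (SD, n = 3) in the controls and 4.05 ± 2.14 TPM in the irradiated tumors, so reads of the pair may be divided between them. Together SLC2A1 and SLC2A3 summed to 207 to 276 TPM in the controls and 96.4 to 155 TPM in the irradiated tumors.

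Hexokinase, which traps glucose as glucose 6-phosphate, changed in its inducible form. HK2 (chr2:74833981-74893359, plus strand) was at 29.5, 32.8 and 32.0 TPM across the controls and at 15.9, 19.8 and 15.1 TPM after irradiation, without overlap, and fell by 0.86 (SE 0.159, adjusted p = 0.0307). HK1, the form expressed in most tissues, was the main one. Of the summed TPM of HK1 and HK2 it made up 79.4% to 83.7% in the controls and 85.9% to 89.4% after irradiation. It was at 152, 129 and 123 TPM across the controls and at 96.9, 124 and 127 TPM after irradiation, which overlapped (difference -0.22, 95% interval -0.57 to 0.14, adjusted p = 0.464). Glucose-6-phosphate isomerase (GPI), the next enzyme and the branch point to the pentose phosphate pathway, was at 312, 280.4 and 281 TPM across the controls and at 213, 215 and 199 TPM after irradiation, without overlap, and did not pass the test (-0.47, adjusted p = 0.0719).

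At the phosphofructokinase step, the committed step of glycolysis, the summed level was 11.3% lower on average with overlapping groups. The platelet-type subunit PFKP was the main one, at 287, 216 and 215 TPM across the controls and at 192, 196 and 231 TPM after irradiation. The liver-type PFKL stayed within a narrow range, at 95.0, 90.4 and 97.9 TPM across the controls and at 84.4, 89.0 and 91.8 TPM after irradiation, and its interval ran from -0.37 to 0.18. The muscle-type PFKM was at 68.6, 45.2 and 73.2 TPM across the controls and at 43.5, 61.6 and 64.1 TPM after irradiation, with control tumor 2 among the irradiated values. None of these 3 subunits passed (adjusted p from 0.490 to 0.780), and the groups overlapped in each. The sum of the 3 was 352 to 450 TPM in the controls and 320 to 387 TPM in the irradiated tumors.

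The PFKFB enzymes make and break fructose 2,6-bisphosphate, the main activator of phosphofructokinase. PFKFB3, whose kinase activity far exceeds its phosphatase activity, was at 54.2, 55.9 and 38.4 TPM across the controls and at 24.6, 38.1 and 33.4 TPM after irradiation. The highest irradiated value lay just under the lowest control value, and the difference of -0.62 did not pass (adjusted p = 0.156). PFKFB4 overlapped between the groups, with 32.4, 39.8 and 32.2 TPM without irradiation and 29.4, 38.1 and 25.7 TPM with it (-0.17, adjusted p = 0.633). Its exons overlap those of UCN2. PFKFB2 was near the filter of 1 TPM, at 0.99 to 2.16 TPM over the 6 tumors (-0.19, adjusted p = 0.739).

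Among the enzymes that split and convert the triose phosphates, TPI1 had the tightest groups. Triosephosphate isomerase (TPI1, chr12:6867119-6870948, plus strand), which interconverts the 2 products of aldolase, was at 1612, 1586 and 1627 TPM across the controls and at 1061, 1068 and 1107 TPM after irradiation. The spread within a group was 25.2 TPM or less (SD) against group means of 1608 and 1079 TPM, and TPI1 fell by 0.58 (SE 0.105, adjusted p = 0.0294). Aldolase A (ALDOA), which cleaves fructose 1,6-bisphosphate, was at 1656, 1998 and 1802 TPM across the controls and at 1542, 1557 and 1608 TPM after irradiation, a smaller difference of -0.21 that did not pass (adjusted p = 0.356). Its groups did not overlap, and it shares exonic sequence on the same strand with AC093512.2, which had a mean of 61.3 TPM. Aldolase C (ALDOC) was at 101, 145 and 106 TPM without irradiation and 97.2, 99.5 and 103 TPM with it, with control tumor 2 apart from the other 5 (adjusted p = 0.497).

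The next 3 enzymes include those that recover NADH and ATP, and none of the 3 passed. Glyceraldehyde-3-phosphate dehydrogenase (GAPDH), often used as a reference gene, was at 8684, 7734 and 7762 TPM across the controls and at 6131, 6107 and 6822 TPM after irradiation. Its groups did not overlap, the mean was 21.2% lower, and the difference of -0.34 (95% interval -0.62 to -0.07) did not pass (adjusted p = 0.155). Phosphoglycerate kinase 1 (PGK1), which makes the first ATP of the pathway, was at 854, 1094 and 949.7 TPM across the controls and at 582, 713 and 461 TPM after irradiation. That mean was 39.4% lower without overlap, and missed the threshold (-0.74, adjusted p = 0.0706). Phosphoglycerate mutase 1 (PGAM1) was at 1151, 949 and 970.5 TPM across the controls and at 729, 794 and 729 TPM after irradiation, also without overlap (-0.44, adjusted p = 0.0978).

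Of the enolases, the minor form passed the test. ENO2 (chr12:6913745-6923698, plus strand), the neuron-specific enolase that many tumor lines also express, was at 138, 144 and 135 TPM across the controls and at 79.1, 84.1 and 59.8 TPM after irradiation, and fell by 0.91 (SE 0.155, adjusted p = 0.0245). ENO1, the ubiquitous form, held 95.1% or more of the summed TPM of ENO1 and ENO2 in every tumor. It was at 2754, 2763 and 2992 TPM across the controls and at 2015, 2310.0 and 2492 TPM after irradiation. Its groups did not overlap, but its difference of -0.32 did not pass (adjusted p = 0.191). Pyruvate kinase M (PKM), the last enzyme of glycolysis, was at 2101, 1858 and 2154 TPM across the controls and at 1391, 1662 and 2001 TPM after irradiation. Irradiated tumor 3 lay within the control range (-0.29, adjusted p = 0.336). The table holds 1 value per gene and does not separate the splice forms PKM1 and PKM2.

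Lactate dehydrogenase, which regenerates NAD+ by turning pyruvate into lactate, was lower in both subunits. LDHA (chr11:18394388-18408425, plus strand), the subunit favoured in glycolytic cells, was at 1435, 1587 and 1415 TPM across the controls and at 885, 913 and 656 TPM after irradiation, without overlap. It fell by 0.87 (SE 0.153, 95% interval -1.22 to -0.52, adjusted p = 0.0273), and its mean was 44.7% lower. LDHB, the subunit of oxidative tissues, was at 831, 699 and 693 TPM across the controls and at 481, 526 and 549 TPM after irradiation, without overlap, and missed the threshold (-0.51, adjusted p = 0.0740). The A subunit made up 63.3% to 69.4% of both in the controls and 54.4% to 64.8% after irradiation, which overlapped. Together they summed to 2107 to 2286 TPM in the controls and 1205 to 1440 TPM in the irradiated tumors, 39.8% lower on average.

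Neither lactate transporter passed the test. SLC16A3, the transporter MCT4 that exports lactate from glycolytic cells, was at 469, 502 and 558 TPM across the controls and at 398, 513 and 341 TPM after irradiation, where irradiated tumor 2 lay inside the control range (-0.31, adjusted p = 0.343). SLC16A1, the transporter MCT1, was close to absent, at 1.21, 0.71 and 1.23 TPM across the controls and at 1.58, 1.51 and 2.16 TPM after irradiation. It was the only one of the 34 genes with all irradiated values above all control values, and did not pass (0.43, 95% interval -0.16 to 1.02, adjusted p = 0.387). SLC16A3 held 99.4% or more of the summed TPM of these transporters in every tumor.

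At the entry of pyruvate into mitochondrial oxidation, none of 4 genes passed, and the kinase PDK1 came closest. PDK1, which phosphorylates and shuts off pyruvate dehydrogenase, was at 11.5, 17.5 and 13.9 TPM across the controls and at 7.59, 7.56 and 5.60 TPM after irradiation. Every irradiated value lay below every control value and the mean was 51.6% lower, the greatest relative reduction of the 34 genes, yet it narrowly missed the threshold (-0.94, 95% interval -1.43 to -0.45, adjusted p = 0.0559). PDK3, a second kinase, was at 2.81 to 4.64 TPM over the 6 tumors and overlapped between groups (adjusted p = 0.647). The E1 subunits overlapped too. PDHA1, the catalytic alpha subunit, was at 125 ± 24.7 TPM (SD, n = 3) in the controls and 97.9 ± 15.4 TPM in the irradiated tumors (adjusted p = 0.351), and PDHB, the beta subunit, at 119 ± 6.55 TPM (SD, n = 3) in the controls and 102 ± 11.9 TPM in the irradiated tumors (adjusted p = 0.373).

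The pentose phosphate branch had 0 calls among its 6 members with limma, and 0 at an unadjusted p under 0.05 as well, against 1.61% and 11.5% of all genes on the lower side. With 6 genes, 0 is near that background. In the oxidative arm, 6-phosphogluconolactonase (PGLS) was at 109.5, 107 and 91.3 TPM across the controls and at 130.2, 107 and 114 TPM after irradiation, a difference of 0.19 (95% interval -0.13 to 0.51). PGD, which makes the second NADPH, was at 126, 90.3 and 119 TPM across the controls and at 99.6, 97.4 and 132 TPM after irradiation, and its difference of -0.03 turned above 0 under several scalings. The summed level of this arm was 197 to 236 TPM in the controls and 205 to 247 TPM in the irradiated tumors.

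In the non-oxidative arm the differences ran from -0.39 to -0.04, and none passed. Transketolase (TKT), which moves 2-carbon units between sugars, was at 458, 430.1 and 465 TPM across the controls and at 368, 345 and 431 TPM after irradiation, where irradiated tumor 3 just exceeded the lowest control (-0.25, adjusted p = 0.310). Transaldolase (TALDO1), which moves 3-carbon units, was at 267, 225 and 271 TPM without irradiation and 184, 188 and 247 TPM with it, also with overlap (-0.31, adjusted p = 0.307). Ribose-5-phosphate isomerase (RPIA) was the only gene of the branch without overlap, at 30.3, 23.0 and 22.0 TPM across the controls and at 16.2, 19.6 and 20.6 TPM after irradiation (-0.39, adjusted p = 0.265). The epimerase RPE was at 24.2 ± 0.753 TPM (SD, n = 3) in the controls and 23.5 ± 1.30 TPM in the irradiated tumors (difference -0.04, 95% interval -0.36 to 0.27).

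The ratio of 2 genes at one step is taken within a tumor, so a scaling of all its values has little effect on it, and 12 such pairs were compared as the difference of their log2(TPM + 1). In 4 pairs the ratio was lower in all irradiated tumors than in any control. The log2 ratio of HK2 to HK1 went from -2.06 ± 0.231 (SD, n = 3) to -2.70 ± 0.249, a difference of -0.64 (SE 0.196), with an exact two-sided permutation p of 0.1, which is the smallest that 3 against 3 tumors can give, and 0.3 adjusted over the 12 pairs. The other three pairs had the same exact p and adjusted p. They were ENO2 to ENO1 (difference -0.59, SE 0.227), SLC16A3 to SLC16A1 (-0.73, SE 0.299) and PDK1 to PDK3 (-0.74, SE 0.253). Without irradiated tumor 3 the difference of ENO2 to ENO1 was -0.37. SLC16A1 is near 1 TPM, and with a pseudocount of 5 TPM the difference of SLC16A3 to SLC16A1 was -0.46 and the groups overlapped (exact permutation p = 0.2), against -1.01 with 0.1 TPM. LDHA to LDHB differed by -0.36 (SE 0.226, exact permutation p = 0.3), with a log2 ratio in irradiated tumor 3 of 0.26 against 0.79 to 1.18 in the other 5 tumors and a difference of -0.16 without it. Aldolase showed the least difference, with ALDOC to ALDOA at -3.96 in both groups. The pair of PFKFB4 to PFKFB3 was the largest in the other direction, at 0.44 (SE 0.226, exact permutation p = 0.2). With 3 against 3 tumors this permutation test cannot pass 0.05.

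**Figure D3:**
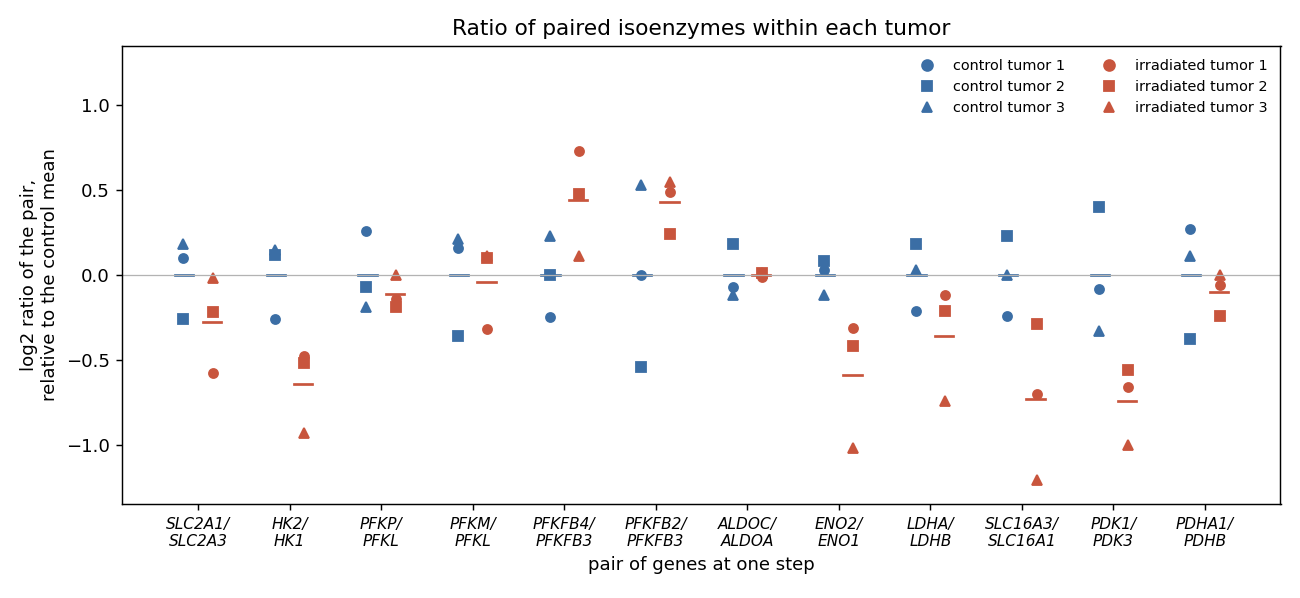
Log2 ratio of 12 pairs of genes at one step in each tumor, set relative to the mean of the 3 controls (short blue line), with the irradiated mean as a short red line. The red points of HK2/HK1, ENO2/ENO1, SLC16A3/SLC16A1 and PDK1/PDK3 all lie below the blue ones, with mean differences from -0.59 to -0.74.

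The 34 genes did not order the tumors in one way. A set of 8 genes was at its highest in control tumor 2 and at its lowest in irradiated tumor 3: SLC2A1, SLC2A3, HK2, PFKFB4, PGK1, ENO2, LDHA and PDK1. Of all 14140 tested genes, 2.85% had that order. That order itself favours differences below 0. The 8 genes ran from -1.03 to -0.17 with a median of -0.87, and the 403 genes of that order among all tested had a median of -0.35. A second set of 17 genes was lowest in irradiated tumor 1, among them HK1, the 3 phosphofructokinases, both aldolases, TPI1, ENO1, PKM, LDHB and TALDO1, with a median difference of -0.23. Of all tested genes, 20.7% were lowest in that tumor, with a median of -0.30. In this second set irradiated tumor 3 was often close to the controls, as with PKM and PFKP above. Both sets were drawn after the values were seen and are a description of these 6 tumors.

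Among 9 hypoxia-induced genes outside glycolysis, 7 had the order of the first set, against 2.85% of all tested genes. They were highest in control tumor 2 and lowest in irradiated tumor 3: CA9, NDRG1, BNIP3, EGLN3, ANKRD37, P4HA1 and KDM3A. The other two differed from it: ADM was lowest in irradiated tumor 1, and VEGFA, the growth factor of blood vessels, was highest in irradiated tumor 2, at 95.6, 77.5 and 98.9 TPM without irradiation and 88.8, 119 and 64.4 TPM with it (-0.04). Carbonic anhydrase 9, often read as a sign of hypoxia (CA9), stood at 20.4, 39.2 and 20.8 TPM across the controls and at 12.5, 17.5 and 9.61 TPM after irradiation (-0.94, adjusted p = 0.131). The 9 genes summed to 699, 1202 and 758 TPM in control tumors 1, 2 and 3, and in irradiated tumors 1, 2 and 3 to 531, 665 and 443 TPM. All 9 had differences below 0, against 55.7% of all genes, and 0 passed with limma. CA9, ADM, NDRG1, BNIP3 and KDM3A had an unadjusted p under 0.05, as did 11.5% of all genes on the lower side. Their part in the differences of the 34 genes was not tested.

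**Figure D4:**
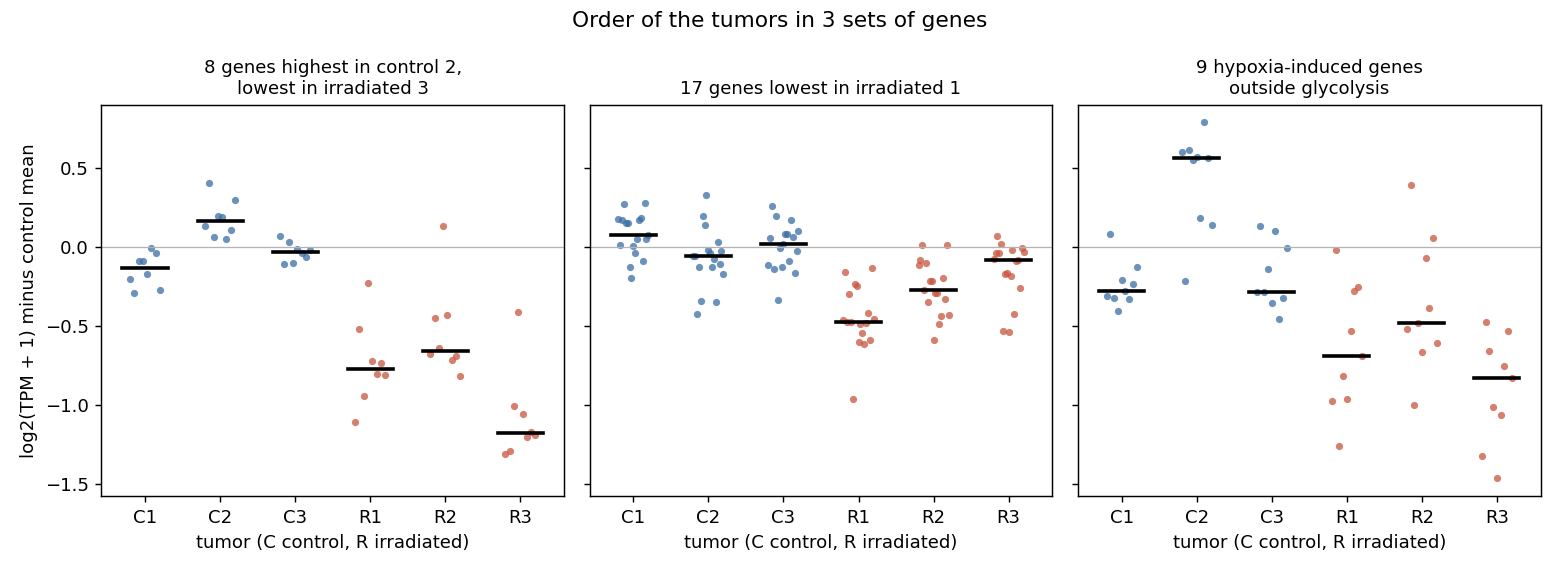
Level of each gene in each tumor on the log2(TPM + 1) scale, relative to that gene's mean in the 3 controls, for 8 of the 34 genes (left), 17 of the 34 (middle) and 9 hypoxia-induced genes outside glycolysis (right). Points are genes and black bars their medians. The left and right sets share a high control tumor 2 and a low irradiated tumor 3, and the middle set is lowest in irradiated tumor 1.

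The promoters of the 34 genes were searched for the core letters of the HIF-1 binding site, ACGTG or GCGTG, on both strands. RefSeq (GRCh38.p14) gives windows for 31 of the 34 genes, and the 250 bases before the first listed start of each gene were used. A match was present in 17 of the 31 (54.8%), against 43.1% of the first windows of all 27305 genes. The windows of the 31 genes were also richer in G and C (median 69.6% against 58.0%), and the part of base composition was not tested. Of the 8 genes highest in control tumor 2 and lowest in irradiated tumor 3, 7 had a window and 5 of those held a match. Among the other members 12 of 24 windows held one, and among those lowest in irradiated tumor 1, 8 of 16. The matches of the 5 genes in the first set are shown in 30 bases of context, read 5′ to 3′ on the strand of the gene, with the matched letters in capitals; CACGTG reads the same on both strands and so matches on each.
HK2 (chr2:74833885-74833914, plus strand): tagccacggaccaCACGTcccatctcaggc
HK2 (chr2:74834063-74834092, plus strand): agccaatggGCGTGcgCACGTcactgatcc
PFKFB4 (chr3:48556953-48556982, minus strand): gtgagttgggcatGCGTGgtcggaggccgg
LDHA (chr11:18394366-18394395, plus strand): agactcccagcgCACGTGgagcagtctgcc
LDHA (chr11:18394470-18394499, plus strand): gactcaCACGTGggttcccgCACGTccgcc
ENO2 (chr12:6914449-6914478, plus strand): cacccgcgctcgtACGTGcgcctccgccgg
PGK1 (chrX:78104029-78104058, plus strand): ggttcgcgGCGTGccggACGTGacaaacgg
PGK1 (chrX:78104052-78104081, plus strand): caaacggaagccgCACGTctcactagtacc
Of these 5 genes LDHA held the most, with 5 matches on the 2 strands, while PDHB held 6 among all 31. Windows end at the start of a RefSeq transcript, and for all 5 of these genes that start lies inside the GENCODE gene span. Most of these stretches, among them those of PFKFB4 and PGK1, therefore fall within the annotated gene. No match was present in these windows of SLC2A1 and PDK1. A match describes the letters only, and binding was not measured.

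**Figure D5:**
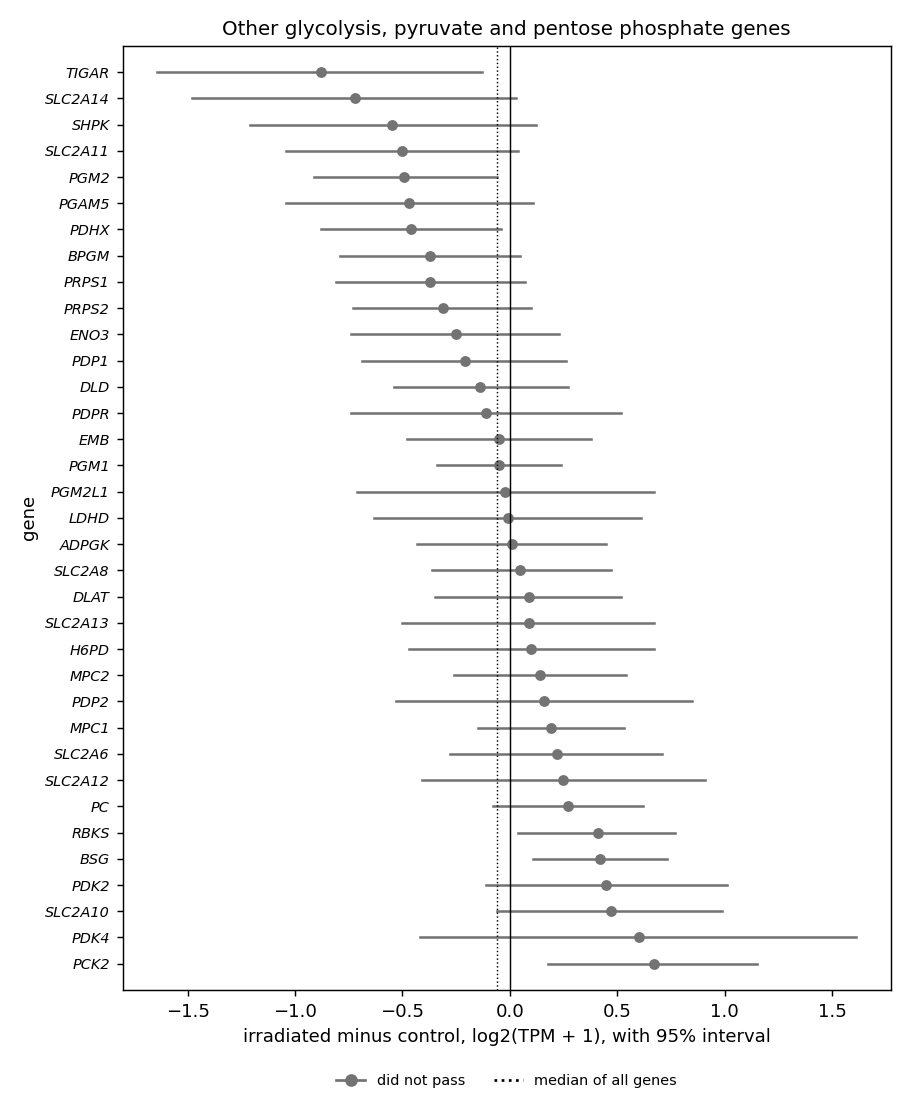
Difference between irradiated and control tumors on the log2(TPM + 1) scale, with 95% intervals from limma, for 35 tested genes of the same pathways outside the 34, ordered by difference. No gene passed, and 18 of the 35 points lie below 0, with TIGAR lowest at -0.88 and PCK2 highest at 0.67.

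Further genes of these pathways, outside the 34, were about as often higher as lower. A list of 60 others covered tissue-specific isoenzymes, further transporters, the pyruvate carrier, the rest of the pyruvate dehydrogenase complex and further enzymes of the pentose phosphate branch, and 35 of them reached the filter. With limma, 0 fell and 0 rose, against 1.61% and 1.37% of all tested genes. At an unadjusted p under 0.05, 3 were lower (TIGAR, PGM2 and PDHX) and 3 higher (PCK2, BSG and RBKS), against 11.5% and 8.93%. Without overlap, 4 were lower and 5 higher, against 15.0% and 11.6%. With 35 genes these counts are near those shares. The median difference of the 35 was -0.01, against -0.31 for the 34 genes. Of the 35, 18 were below 0, against 55.7% of all genes.

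Basigin (BSG), the membrane partner that carries the lactate transporters to the surface, was at 932, 948 and 947 TPM across the controls and at 1447, 1292 and 1073 TPM after irradiation, without overlap (0.42, adjusted p = 0.135). Mitochondrial PEPCK (PCK2), which works against pyruvate kinase and is a known target of the integrated stress response, was at 41.2, 26.0 and 40.6 TPM without irradiation and 65.3, 56.9 and 48.2 TPM with it (0.67, adjusted p = 0.130). Ribokinase (RBKS) was at 8.35 ± 0.170 TPM (SD, n = 3) in the controls and 11.4 ± 0.809 TPM in the irradiated tumors, again without overlap (adjusted p = 0.200).

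On the lower side were 3 further genes. TIGAR, a phosphatase of fructose 2,6-bisphosphate named as a p53 target, was at 10.1, 7.56 and 3.95 TPM across the controls and at 2.45, 4.49 and 2.96 TPM after irradiation, with overlap (-0.88, adjusted p = 0.180). Phosphoglucomutase 2 (PGM2), which links ribose phosphates and glycogen metabolism to the pathway, was at 13.6 ± 2.47 TPM (SD, n = 3) in the controls and 9.38 ± 0.852 TPM in the irradiated tumors, without overlap (-0.49, adjusted p = 0.188). PDHX, the subunit that anchors the E3 enzyme in the pyruvate dehydrogenase complex, was at 23.1, 19.1 and 15.6 TPM across the controls and at 12.6, 14.6 and 13.6 TPM after irradiation, also without overlap (-0.46, adjusted p = 0.209).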

How the data were processed

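The deposited table holds 60606 genes and 6 columns of TPM, made by the authors, 1 column per tumor, with 2 decimals. Libraries came from total RNA with an Illumina TruSeq kit, per the labels' protocols. Among tools, the submitters' processing notes list RSEM, StringTie and HISAT2, and as build hg38. Nothing states the annotation release, the strand setting or whether mouse reads were taken out, so mouse reads mapped to human genes, and reads from overlapping antisense genes, cannot be told apart from the genes named. Because a TPM is a share, a change in abundant genes shifts the others, and depth is unknown.

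The comparison used limma (version 3.58.1, R 4.3.3; lmFit, then eBayes with a trend) on log2(TPM + 1), for genes whose mean reached 1 TPM, without covariates, two-sided, with Benjamini-Hochberg adjustment over all 14140 genes at 0.05. The fit was tested on simulated data. Ratios of paired genes were tested with an exact permutation test over the 6 tumors. Members, lists and tests were chosen with earlier results of these data known. The genes named are all 34 members and, of the other pathway genes, the 6 with the smallest p among those reported, and 1 listed gene is not reported here. Values in every tumor are given for members that were called or did not overlap, and for a fixed set of others. PGAM2, ENO3, SLC2A14, CA9, the called markers, the overlapping genes and the tumor-order sets were named after their values were seen. Overlaps came from GENCODE 29 (GRCh38), and all 6 tumors were used.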

Additional observations from a re-analysis of the deposited data

How the results depend on the processing

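The 5 members that fell were also 5 with pseudocounts of 0.1 and 5 TPM, a minimum mean of 5 TPM, quantile normalization, the removal of mitochondrial and ribosomal protein genes, and the addition of each gene's processed pseudogenes, which held 0.177% of the sum or less. Their number was 2 with medians of ratios (HK2 and ENO2), 2 with a replicate block (SLC2A1 and LDHA), 0 without a filter on low values, which tests 30037 genes, and 0 without trend, and it ranged from 0 to 4 with single tumors left out. Over all genes, 227 fell in the main fit, 253 with medians of ratios, 97 with a replicate block, 64 without a filter and 142 without trend. In all alternative fits the 5 members kept a difference below 0, with limma adjusted p from 0.0224 to 0.141. The labels do not tie same-numbered tumors together, so the numbers were not taken as pairs. Same-numbered tumors also did not deviate together (correlations of -0.0433, -0.0459 and -0.059). Scaling by medians of ratios moved the median of all genes from -0.0557 to -0.00334. Small differences changed sign. PGD was at 0.03 with medians of ratios, 0.02 with quantile normalization and 0.01 without mitochondrial and ribosomal protein genes, RPE at 0.01 with medians of ratios and with quantile normalization, and the ratio ALDOC/ALDOA at -0.0012 with a pseudocount of 0.1 TPM. With single tumors left out, PGD ranged from -0.18 to 0.06, RPE from -0.07 to 4e-04 and PFKM from -0.34 to 0.04. The ratios ranged from -0.21 to 0.02 for PFKP/PFKL, from -0.22 to 0.1 for PFKM/PFKL, from -0.29 to 0.03 for PDHA1/PDHB and from -0.06 to 0.09 for ALDOC/ALDOA. The causes were not tested.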
